A study of Bos taurus with 18 samples.

Results

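Of 24596 genes counted in cultured bovine fibroblasts, 88 were silent in the primary libraries of a Simmental-like line and on at both later stages. The members were chosen by their own values. Their rounded counts summed to 3 or less over 3 primary libraries, and their mean was 1 CPM (counts per 1000000 counts of a library) or more in both the senescent and the immortalized libraries. The limit was met by 90 genes, of which 2 were left out by the rule. Of the 88, 68 carry a gene symbol and 20 an Ensembl identifier only. In all, 10652 genes were silent in primary libraries. Of these, 171 were on in immortalized and 177 in senescent libraries, so the 90 genes on at both made up 52.6% of the genes on in immortalized and 50.8% of those on in senescent libraries. The difference from primary libraries is therefore given as a description, with no test.

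By its design text, the study took cells from Simmental and Holstein cows and kept them in long-term culture until they immortalized spontaneously. Each line has 3 libraries at each of 3 stages, 18 in all. The Simmental-like stages are PBF-13 (primary), Sn-BF-13 (senescent) and HUN-BF-13 (immortalized), and their columns are named BDF-20-3B-4 for primary, BDF-20-MultiXray-Ctrl for senescent and BF-13 for immortalized cultures. The Holstein-like stages are PBF-15, Sn-BF-15 and HUN-BF-15, with columns named BEF for primary, BF-15-P9 for senescent and BF-15-P23 for immortalized cultures. All Holstein-like column names end in Rerun, an ending that their sample descriptions and the Simmental-like columns lack. What it stands for is not stated. No agent, transgene or age is given for any group. Each stage is 1 named culture, so stage and culture cannot be told apart. Nothing says that the replicates, called biological in the labels, came from separate cultures, so p-values measure only the spread between these libraries.

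Simmental-like libraries held 18.2 to 23.2 M counts (M for 1000000), the later Holstein-like ones 11 to 14.1 M, and the Holstein-like primary ones 1.42 to 1.47 M. Fibroblast markers, such as collagens and DCN, took 5.57% to 8.10% of the counts in the Simmental-like libraries. In 8 Holstein-like libraries they took 0.108% to 0.675%, which goes against the label, and in immortalized library 3 they took 7.65%. Skeletal muscle markers took 16.8% to 16.9% of the Holstein-like primary libraries. Heart markers took 6.97% of Holstein-like senescent library 1, and liver markers took 19.1% to 19.9% of senescent libraries 2 and 3 and immortalized library 1. Kidney markers took 1.19% of immortalized library 2. Simmental-like senescent libraries 1 and 2, and the Holstein-like primary libraries, were close to counting noise among themselves, with a chi-square of 1.36 and of 1.21 to 1.24 per gene, against 41.8 to 370 among Simmental-like primary libraries.

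Many members encode proteins best known from nerve cells. Ionotropic receptors open on binding glutamate or GABA, potassium channels set membrane voltage, and adhesion molecules such as SLITRK and LRRTM proteins sit at synapses, where scaffolds such as liprins hold the release machinery in place. Other members are developmental regulators: SOX9 and SOX5 act in cartilage, and SOX10 and TFAP2B in the neural crest, the embryonic tissue that gives rise to glia, pigment cells and facial skeleton. Fibroblasts are the matrix-producing cells of connective tissue. Senescent fibroblasts have stopped dividing, and immortalized ones divide without limit.

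In the primary libraries 37 members had 0 counts, 24 had 1, 15 had 2 and 12 had 3, and the highest value of a member in a library was 0.129 CPM. Immortalized means ran between 1.02 and 54.6 CPM with a median of 5.36. Senescent means ran between 1.02 and 102.5 CPM with a median of 4.14. Means of 10 CPM or more were reached by 26 members in immortalized and 20 in senescent libraries. The members summed to 844 to 919 CPM per immortalized library and 923 to 936 CPM per senescent library, against 1.36 to 1.53 CPM per primary library. Among the 37 members with 0 primary counts, immortalized libraries stood at least 24.1-fold to at least 1128-fold higher, and senescent libraries at least 20.9-fold to at least 1646-fold higher, set against 3 counts over the 3 primary libraries. In bulk libraries such as these, fewer cells of a type and less RNA per cell cannot be told apart.

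**Figure D1:**
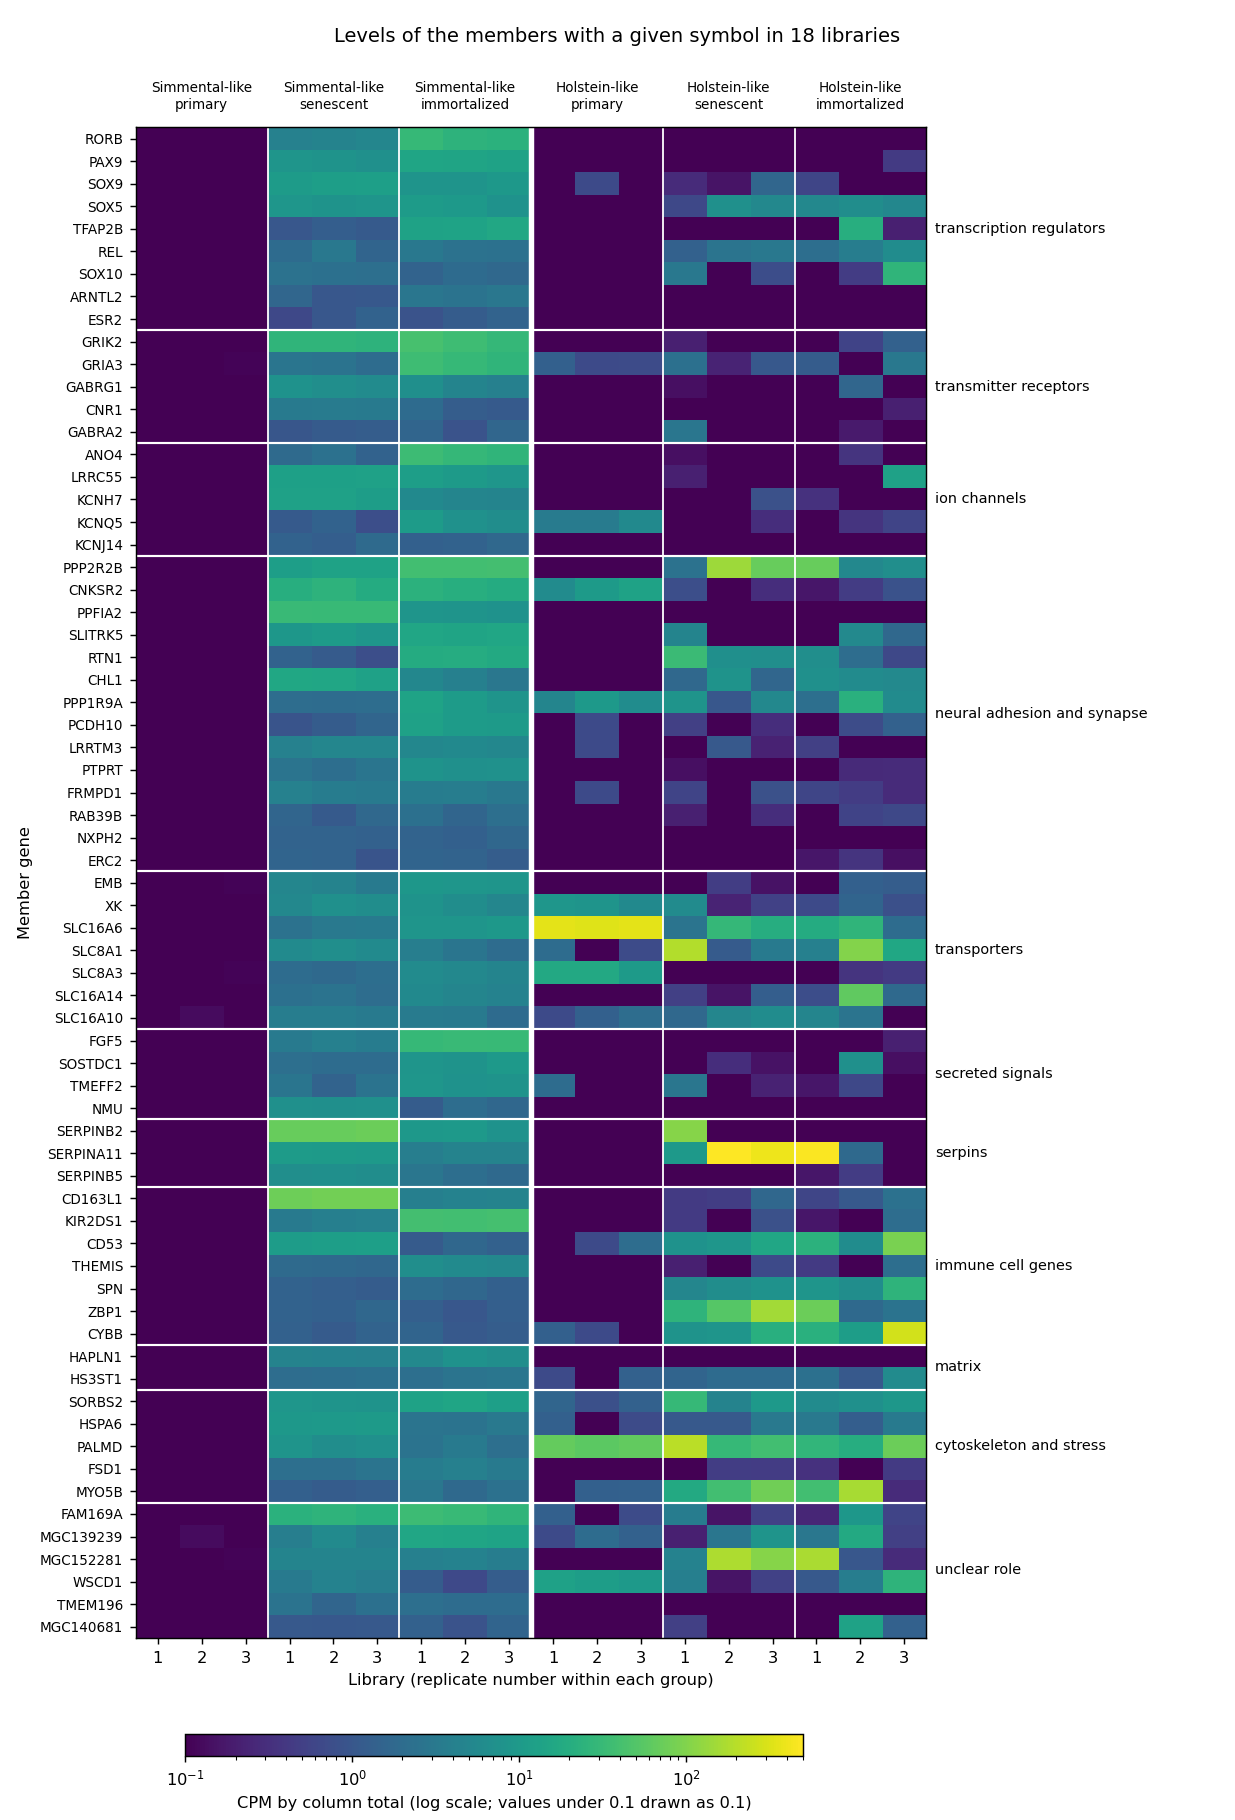
Heat map of 67 of the 68 members with a symbol, in rows grouped by role, across 9 Simmental-like and 9 Holstein-like libraries in columns. Colour is CPM by column total on a log scale. The Simmental-like primary columns are dark for every member by the rule, the later ones lie mostly between 1 and 100 CPM, and the Holstein-like columns differ between libraries of 1 stage.

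Of the 9 transcription regulators, RORB, an orphan nuclear receptor, had the highest mean in immortalized libraries and SOX9 in senescent ones. RORB stood at 30.4, 24.9 and 23.1 CPM in immortalized libraries and 4.26, 4.47 and 4.95 CPM in senescent ones, with 0 counts in primary libraries. PAX9, a regulator of tooth and palate development known from mice, stood at 14.8, 14.6 and 13.4 CPM in immortalized and 8.61, 8.05 and 7.26 CPM in senescent libraries. For both genes every immortalized library lay above every senescent one. TFAP2B, an AP-2 factor of the neural crest, stood at 13.4, 13.8 and 16.3 CPM in immortalized and 1.02, 1.26 and 1.13 CPM in senescent libraries.

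SOX9 and SOX5, which drive cartilage genes, lay between 7.74 and 12.3 CPM in every later library. SOX9 averaged 8.61 ± 0.613 CPM in immortalized and 11.6 ± 0.886 CPM in senescent libraries (SD, n = 3 each). For SOX5 the means were 9.43 ± 1.58 and 8.38 ± 0.480 CPM in immortalized and senescent libraries. SOX10, the regulator of glia and pigment cells, was lower, at 1.74 ± 0.218 CPM in immortalized and 2.35 ± 0.153 CPM in senescent libraries. REL, a subunit of NF-kB, averaged 2.63 CPM in immortalized and 2.18 CPM in senescent libraries. ARNTL2, a partner of the clock protein, averaged 2.76 CPM in immortalized and 1.23 CPM in senescent libraries. The lowest of the group was ESR2, estrogen receptor beta, at 1.2 CPM in immortalized and 1.02 CPM in senescent libraries.

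The 5 transmitter receptors were led by GRIK2, a kainate receptor subunit, at 41.5, 35.6 and 29.2 CPM in immortalized and 26.4, 26.2 and 24.3 CPM in senescent libraries. The AMPA receptor subunit GRIA3 stood at 35.5, 29.8 and 26.1 CPM in immortalized and 2.71, 2.58 and 2.01 CPM in senescent libraries, so only GRIK2 of the pair was already high in senescent cells. The GABA-A receptor subunits GABRG1 and GABRA2 averaged 5.25 ± 1.53 and 1.39 ± 0.425 CPM in immortalized libraries, and 6.87 ± 0.844 and 1.12 ± 0.138 CPM in senescent ones. CNR1, the cannabinoid receptor of the brain, stood at 1.45 ± 0.465 CPM in immortalized and 3.39 ± 0.0880 CPM in senescent libraries.

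Ion channel genes numbered 6. ANO4, an anoctamin, stood at 34.3, 29.2 and 26.7 CPM in immortalized and 1.89, 2.37 and 1.44 CPM in senescent libraries. KCNH7, a voltage-gated potassium channel, went the other way, at 5.05 ± 0.574 CPM in immortalized and 12.5 ± 0.926 CPM in senescent libraries. LRRC55, an accessory subunit of potassium channels, stood at 10.4 ± 1.56 CPM in immortalized and 12.7 ± 0.220 CPM in senescent libraries, and KCNJ14, an inward rectifier, at 1.53 CPM in immortalized and 1.54 CPM in senescent ones.

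By the roles assigned here, neural adhesion and synapse genes formed the largest group with a symbol, with 14 members. Sorted by symbol pattern instead, PPP2R2B, PPP1R9A, PTPRT, FRMPD1 and RAB39B fell among kinases, phosphatases and small GTPase regulators, a group of 7. Synapse and scaffold genes then numbered 4, and neural adhesion genes 3. The share of such roles among all genes was not counted. PPP2R2B, a regulatory subunit of protein phosphatase 2A, had 37.9, 38.4 and 39.7 CPM in immortalized and 11.9, 13.6 and 13.5 CPM in senescent libraries. CNKSR2, a scaffold of the Ras pathway at synapses, had 23.5, 20.5 and 19.2 CPM in immortalized and 20.8, 24.3 and 18.8 CPM in senescent libraries, with 0 counts in primary ones. PPFIA2, a liprin of the presynaptic active zone, had 8.51, 8.28 and 7.74 CPM in immortalized libraries and 31.8, 31.5 and 31.3 CPM in senescent ones. The later stages overlapped for CNKSR2 and were apart for PPP2R2B and PPFIA2, in opposite directions.

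SLITRK5, a synaptic adhesion molecule, averaged 15 ± 0.556 CPM in immortalized and 9.51 ± 0.931 CPM in senescent libraries. PPP1R9A, which encodes the actin-binding neurabin, averaged 10.9 ± 2.89 CPM in immortalized and 2.06 ± 0.0580 CPM in senescent libraries. PTPRT, a receptor tyrosine phosphatase, averaged 7.49 ± 0.314 CPM in immortalized and 2.5 ± 0.302 CPM in senescent libraries. LRRTM3, a postsynaptic adhesion molecule, FRMPD1, a scaffold, RAB39B, a vesicle GTPase, NXPH2, a neurexin ligand, and ERC2, an active zone protein, lay between 1.33 and 5.37 CPM at both later stages. RTN1, CHL1 and PCDH10 are described with the comparison of the later stages.

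Transporters were represented by 7 members. SLC8A1 and SLC8A3, which exchange sodium for calcium, averaged 2.87 ± 0.916 and 5.34 ± 0.717 CPM in immortalized libraries, and 6.15 ± 0.417 and 2.01 ± 0.162 CPM in senescent libraries. The 2 exchangers were thus in opposite order at the later stages. SLC16A6, SLC16A14 and SLC16A10 belong to the monocarboxylate transporter family, of which SLC16A10 carries aromatic amino acids. EMB encodes embigin, a membrane partner of such transporters, and had 8.80 ± 0.397 CPM in immortalized and 4.25 ± 0.938 CPM in senescent libraries. XK, a membrane protein that carries a blood group antigen in humans, had 6.4 ± 1.47 CPM in immortalized and 6.36 ± 0.958 CPM in senescent libraries.

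The 4 genes of secreted signals were FGF5, a fibroblast growth factor, SOSTDC1, an antagonist of BMP and Wnt signals, TMEFF2, a membrane protein with follistatin modules that can be shed, and the neuropeptide gene NMU. SOSTDC1 averaged 8.69 ± 0.826 CPM in immortalized and 2.10 ± 0.114 CPM in senescent libraries. TMEFF2 averaged 8.22 ± 0.602 CPM in immortalized and 2.29 ± 0.665 CPM in senescent libraries. Of the matrix genes, HAPLN1, which links hyaluronan to proteoglycans in cartilage, averaged 6.65 ± 1.10 CPM in immortalized and 4.35 ± 0.164 CPM in senescent libraries, and HS3ST1, a heparan sulfate sulfotransferase, 2.59 ± 0.304 CPM in immortalized and 2.20 ± 0.102 CPM in senescent ones.

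All 3 serpins were higher in senescent libraries. SERPINA11, of the clade of plasma protease inhibitors, averaged 4.28 ± 0.425 CPM in immortalized and 10.3 ± 0.325 CPM in senescent libraries. SERPINB2, an inhibitor of plasminogen activators, is uncertain, since 2 genes of the table carry this symbol. The member, ENSBTAG00000023198, averaged 0.0470 CPM in primary, 71.1 in senescent and 9.03 in immortalized libraries. The other, ENSBTAG00000023026, averaged 5.60, 6.94 and 0.104 CPM in primary, senescent and immortalized libraries, and had 348 counts in primary libraries. Their expected counts were not whole in 5 of the 9 Simmental-like libraries, the 3 senescent ones among them, while the sum of both copies was whole to within 0.01. Reads that match both copies cannot be assigned to either.

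Immune cell genes numbered 7. KIR2DS1, a receptor of natural killer cells, had the highest mean of them in immortalized libraries, and CD163L1, a scavenger receptor, in senescent ones. CD53 (a tetraspanin) and SPN (sialophorin) are leukocyte surface proteins, THEMIS acts in T cell development, CYBB is the oxidase subunit of phagocytes, and ZBP1 senses nucleic acids. THEMIS averaged 6.04 ± 0.708 CPM in immortalized and 1.81 ± 0.0973 CPM in senescent libraries. CYBB averaged 1.28 ± 0.228 and 1.35 ± 0.174 CPM, SPN 1.71 ± 0.333 and 1.32 ± 0.133 CPM, and ZBP1 1.21 ± 0.184 and 1.51 ± 0.173 CPM in immortalized and senescent libraries. Of 16 macrophage and lymphoid markers found, 0 were members. Their summed level was 16.3 to 18 CPM in primary, 15.1 to 17.1 CPM in senescent and 7.74 to 11.4 CPM in immortalized libraries. The defining leukocyte gene PTPRC was at 0.0144, 0.0680 and 0.0898 CPM in primary, senescent and immortalized libraries, and TYROBP had 0 counts in all 9. CD14 carried most of the sum in primary libraries, at 14.6, 6.09 and 0.154 CPM at the 3 stages in that order. Other markers of the list were higher at the later stages: CD163 averaged 0.872, 3.97 and 4.70 CPM, CSF1R 0.179, 1.29 and 1.38 CPM, and CD68 1.56, 2.83 and 2.61 CPM in primary, senescent and immortalized libraries.

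The remaining members with a known role belong to the cytoskeleton or the stress response. SORBS2, an adaptor of actin fibres, averaged 13.6 ± 1.41 CPM in immortalized and 8.33 ± 0.336 CPM in senescent libraries. PALMD, a membrane-linked cytosolic protein, averaged 2.73 ± 0.548 CPM in immortalized and 7.32 ± 0.776 CPM in senescent libraries. MYO5B, a myosin of vesicle transport, averaged 2.40 ± 0.560 CPM in immortalized and 1.30 ± 0.0792 CPM in senescent libraries, and FSD1, a microtubule protein, 3.63 ± 0.478 CPM in immortalized and 2.37 ± 0.266 CPM in senescent ones. FAM169A, of unclear role, was among the highest members with a symbol, at 34.1, 31.3 and 26.5 CPM in immortalized and 22.8, 25.8 and 22.2 CPM in senescent libraries.

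The 20 members known by identifier only held 263 of 883 CPM summed over the mean levels of all members in immortalized libraries, and 394 of 928 CPM in senescent ones. ENSBTAG00000012748 had 49.8, 55.6 and 58.4 CPM in immortalized and 1.31, 1.68 and 1.70 CPM in senescent libraries. ENSBTAG00000039425 had 1.21, 1.64 and 1.71 CPM in immortalized and 45.6, 46.8 and 45.5 CPM in senescent libraries. Neither had a count in the Simmental-like primary or in any Holstein-like library. Expected counts that are not whole, which arise when a read matches more than 1 gene, were found in a later Simmental-like library for 22 members. Among them are 16 of the identifier-only genes, CD163L1, KIR2DS1, SORBS2 and SERPINB2, so the values of these genes are uncertain to that extent.

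In the families of GABA-A and glutamate receptor subunits and of potassium channels with their accessory subunits (KCN symbols), most genes silent in primary libraries stayed under 1 CPM at both later stages. Of 14 SOX genes in the table, 9 were silent in primary libraries, of which 3 were members and 5 stayed under 1 CPM at both later stages. For GABA-A receptor subunits the counts were 15 silent of 18, with 2 members and 12 under 1 CPM. For ionotropic glutamate receptor subunits they were 11 silent of 18, with 2 members and 7 under 1 CPM. Of 91 genes with a KCN symbol 61 were silent, 3 were members and 57 stayed under 1 CPM. Of the 3 sodium-calcium exchangers, all silent in primary libraries, 2 were members. Of 14 genes of the monocarboxylate transporter family 6 were silent and 3 of these were members. Over all genes, members made up 0.826% of those silent in primary libraries. The families were picked because they hold a member, so their shares cannot be compared with this one.

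**Figure D2:**
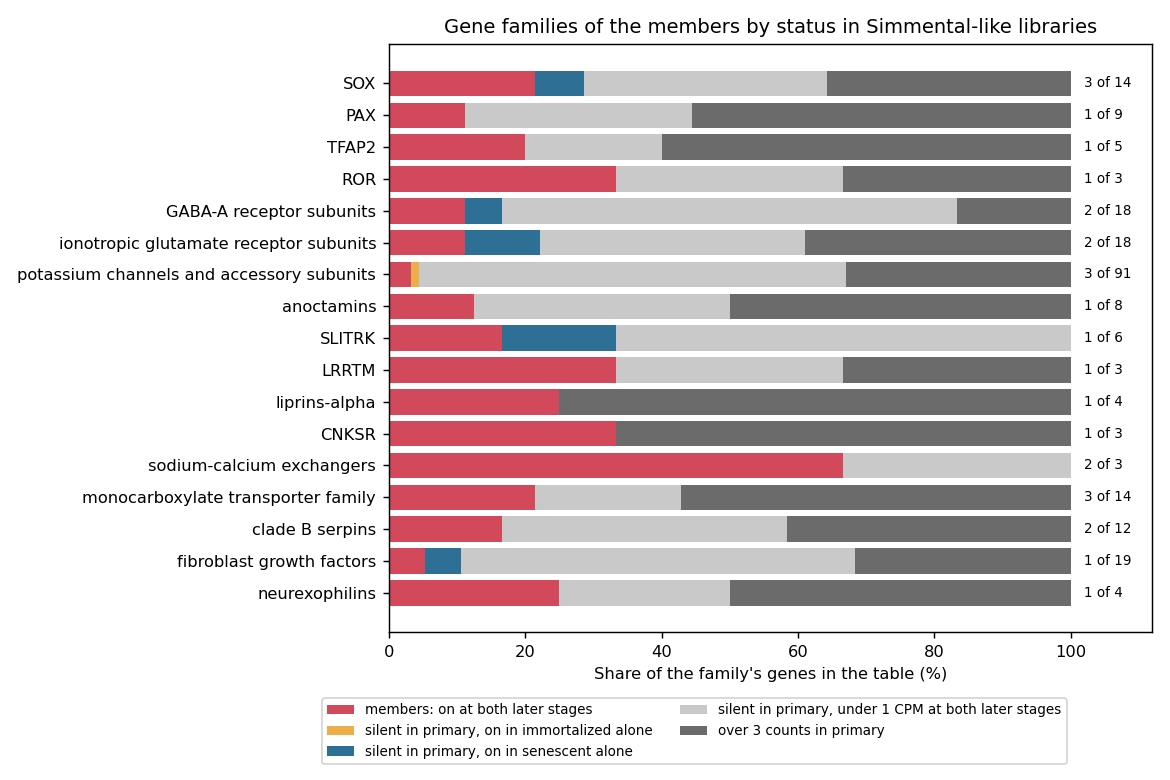
Stacked bars give, for 17 gene families with a member, the share of the family's genes in the table (in %) by status in the Simmental-like libraries. The text at the right gives members of genes in the table. Grey parts fill most of each bar for GABA-A receptor subunits (2 of 18), glutamate receptor subunits (2 of 18) and potassium channels with accessory subunits (3 of 91).

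Lists of cell type markers, which had been written with results of these data known, held few members. Of 19 neuronal markers found in the table, 2 were members, CHL1 and RTN1. SNAP25, of synaptic vesicle release, was at 0, 0.135 and 0.0506 CPM in primary, senescent and immortalized libraries, SYT1 at 0, 0.0172 and 0.120 CPM, and GAP43 at 0, 0 and 0.0183 CPM. Some other markers of the list were higher at both later stages. NCAM1 averaged 0.456, 16.3 and 46.9 CPM, TUBB3 21.3, 41.7 and 60.9 CPM, and UCHL1 141, 328 and 281 CPM in primary, senescent and immortalized libraries. INA went the other way, at 2.5, 0.308 and 0.0337 CPM, as did STMN2, at 0.636, 0.118 and 0.0169 CPM. L1CAM (2.15, 7.88 and 0.379 CPM) and SYN1 (2.29, 4.52 and 1.16 CPM) rose in senescent libraries but lay below primary ones in immortalized libraries. The whole neuronal list summed to 150 to 191 CPM in primary, 399 to 426 CPM in senescent and 396 to 425 CPM in immortalized libraries. UCHL1 carried most of that sum at every stage. Of 49 genes of neuronal adhesion and synapses, 37 were silent in primary libraries. Among these, 7 were members, 0 were on in immortalized libraries alone, 6 in senescent libraries alone, and 24 stayed under 1 CPM at both.

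Among 15 glial, Schwann and melanocyte markers found, SOX10 was the member. Of these 15, 12 were silent in primary libraries and 11 of the 12 stayed under 1 CPM at both later stages, among them CDH19, a Schwann cell cadherin, with 0 counts in the 9 libraries. The list summed to 12.9 to 26.4 CPM in primary, 50.4 to 55.6 CPM in senescent and 51.8 to 54.6 CPM in immortalized libraries, most of it S100B at 11, 32.4 and 35.7 CPM and MITF at 8.03, 14.7 and 14.4 CPM at those stages. Of 16 cartilage and bone markers, SOX9 and HAPLN1 were members. That list summed to 500 to 588 CPM in primary, 1578 to 1594 CPM in senescent and 1842 to 1902 CPM in immortalized libraries. SPP1 (366, 1141 and 1253 CPM) and COL11A1 (177, 379 and 546 CPM at the same stages) carried most of that sum. The proteoglycan gene ACAN averaged 0.609, 31.2 and 30.9 CPM, while SP7 went the other way, at 2.09, 0.216 and 0.0169 CPM. COL2A1 averaged 0.116, 1.91 and 16.1 CPM, and RUNX2 6.83, 15.9 and 9.24 CPM at the same stages. COL9A1, COMP, MATN3, IBSP and BGLAP stayed under 1 CPM at every stage. Of 21 epithelial and keratinocyte markers found, 0 were members. Among them, 10 were silent in primary libraries, and all 10 stayed under 1 CPM at both later stages. That list summed to 9.08 to 10.4 CPM in primary, 89.7 to 96.5 CPM in senescent and 91.8 to 98.2 CPM in immortalized libraries. PERP, a desmosome gene, carried most of it at the later stages, with 4.98, 83.3 and 72.3 CPM in primary, senescent and immortalized libraries, and the splicing factor gene ESRP1 averaged 0.169, 3.91 and 18.9 CPM. Among the markers that went the other way, LAMB3 averaged 2.23, 1.03 and 0.173 CPM and OVOL1 0.603, 0.188 and 0.052 CPM. The part of any other cell type in the members' levels was not tested.

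By gene order in the RefSeq table (ARS-UCD assembly), 3 pairs of members were direct neighbours, among 65 members whose symbol was found once. Among them, GABRG1 lies beside GABRA2, and CYBB beside XK. In the GABA-A cluster the next gene, GABRA4, stayed at 0.0161 CPM in senescent libraries and at 0 counts at the other stages. LANCL3, next to XK, stayed at 0.0859 CPM in senescent libraries, and DYNLT3, next to CYBB, was on at every stage, at 69.8, 83.1 and 88.7 CPM in primary, senescent and immortalized libraries.

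Immortalized and senescent libraries were then compared, a contrast that the rule did not use, although it required both groups to be on. Of the 88 members, all tested with edgeR's quasi-likelihood test, 58 passed an adjusted p of 0.05, 36 higher and 22 lower in immortalized libraries. Of all 13099 genes tested, 32.4% passed, 16.4% higher and 16.1% lower. A fit of the 6 compared libraries alone called 66.8% of genes, and 39 members higher and 27 lower, so the members' share lay nearer to that of all genes. Among the 11421 genes on at both later stages and not silent in primary libraries, 29.4% passed. With total-count scaling, which shifts the median of all genes by -0.16 on the log2 scale, 34 members were higher and 24 lower, and 1505 genes were higher and 2698 lower against 2146 and 2103 with TMM. The members' median log2 change was 0.33 and its median size 1.13, against 0.00 and 0.40 over all genes tested.

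Values of the 3 immortalized libraries did not overlap those of the 3 senescent ones for 70 members, 37 higher and 33 lower. Overlap was judged on CPM by column total, not on the TMM scale of the tests. Without TMM the median of all genes shifts by -0.16 on the log2 scale. The share of genes without overlap over all genes was 71.5%, with 25.4% higher and 46.1% lower. Means of the 2 stages lay within a factor of 2 of each other for 40 members and more than 4-fold apart for 24. Across the 88 members the log2 means of the 2 stages had a Pearson r of 0.288 and a Spearman rho of 0.294, a description over genes that share the same 6 libraries and limits of level. The median coefficient of variation between replicates was 12.5% for members in immortalized and 9.16% in senescent libraries, and 8.06% and 4.48% for genes on at both stages that were not silent in primary ones.

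**Figure D3:**
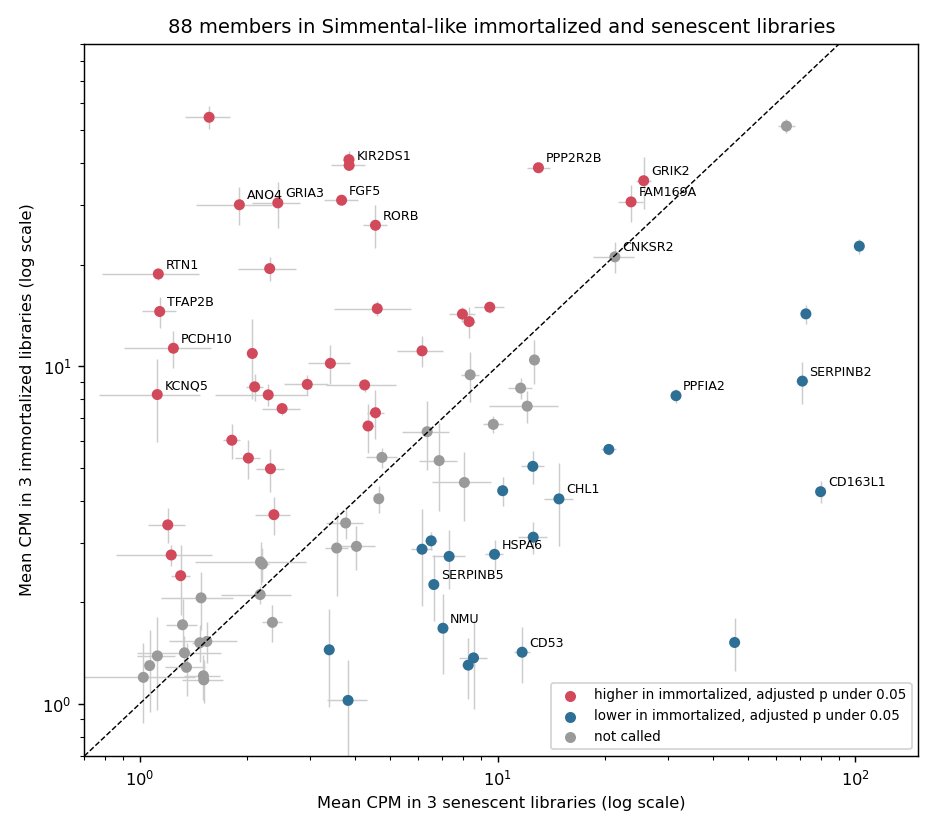
Each point is 1 of 88 members, with its mean CPM in 3 immortalized libraries (y axis, log scale) and 3 senescent libraries (x axis, log scale), and bars of 1 SD. Colours give the 36 members called higher, the 22 called lower and the 30 not called, and the dashed line marks equal levels.

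The 8 members with a symbol that rose most included genes from 6 of the role groups. RTN1, a reticulon of the endoplasmic reticulum in neurons, had 19, 19.4 and 17.9 CPM in immortalized and 1.45, 1.16 and 0.773 CPM in senescent libraries, a log2 change of 4.21 ± 0.24 (SE, edgeR adjusted p = 5.42e-05). ANO4, with its values above, rose by 4.14 ± 0.24 (adjusted p = 9.79e-06). TFAP2B rose by 3.83 ± 0.18 (adjusted p = 2.41e-05) and GRIA3 by 3.80 ± 0.25 (adjusted p = 1.98e-05). In each of these genes the lowest immortalized library exceeded the highest senescent one many times over.

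KIR2DS1 had 38.7, 38.6 and 40.7 CPM in immortalized and 3.40, 3.94 and 4.21 CPM in senescent libraries (log2 change 3.51 ± 0.18, edgeR adjusted p = 6.22e-06). PCDH10, a protocadherin, had 13, 10.6 and 10.3 CPM in immortalized and 0.919, 1.21 and 1.60 CPM in senescent libraries (3.34 ± 0.24, adjusted p = 0.000146). FGF5 had 30.2, 32.2 and 30.7 CPM in immortalized and 3.34, 4.1 and 3.55 CPM in senescent libraries (3.24 ± 0.19, adjusted p = 9.63e-06). KCNQ5, a subunit of the M-type potassium channel, had 10.8, 7.43 and 6.48 CPM in immortalized and 1.11, 1.47 and 0.773 CPM in senescent libraries (3.03 ± 0.32, adjusted p = 0.000689). Of the identifier-only genes, ENSBTAG00000012748 rose by 5.28 ± 0.17 and ENSBTAG00000034437 by 3.57 ± 0.13.

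Among members with a symbol that fell, CD163L1 changed most, with 3.90, 4.33 and 4.51 CPM in immortalized and 77.2, 80.7 and 81.9 CPM in senescent libraries (log2 change -4.07 ± 0.13, edgeR adjusted p = 5.83e-06). It had 0 counts in all 3 primary libraries. CD53 had 1.15, 1.70 and 1.42 CPM in immortalized and 11, 11.9 and 12.2 CPM in senescent libraries (-2.87 ± 0.22, adjusted p = 3.79e-05). The SERPINB2 copy fell by 2.81 ± 0.18 (adjusted p = 2.01e-05), and SERPINB5, which encodes maspin, by 1.4 ± 0.29 (adjusted p = 0.00661). The neuropeptide gene NMU had 1.21, 2.09 and 1.72 CPM in immortalized and 7.11, 6.89 and 7.11 CPM in senescent libraries (-1.90 ± 0.25, adjusted p = 0.000607).

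PPFIA2 fell by 1.78 ± 0.18 (edgeR adjusted p = 0.000190). CHL1, an adhesion molecule of growing axons, had 5.16, 4.04 and 2.94 CPM in immortalized and 15.8, 15.5 and 13.3 CPM in senescent libraries (-1.71 ± 0.23, adjusted p = 0.00190). HSPA6, an inducible heat shock protein, had 2.63, 2.59 and 3.09 CPM in immortalized and 9.38, 9.58 and 10.5 CPM in senescent libraries (-1.66 ± 0.20, adjusted p = 0.000404). For all of these the highest immortalized library lay below the lowest senescent one. ENSBTAG00000039425 fell by 4.74 ± 0.18 and ENSBTAG00000039380 changed by -2.51 ± 0.24.

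**Figure D4:**
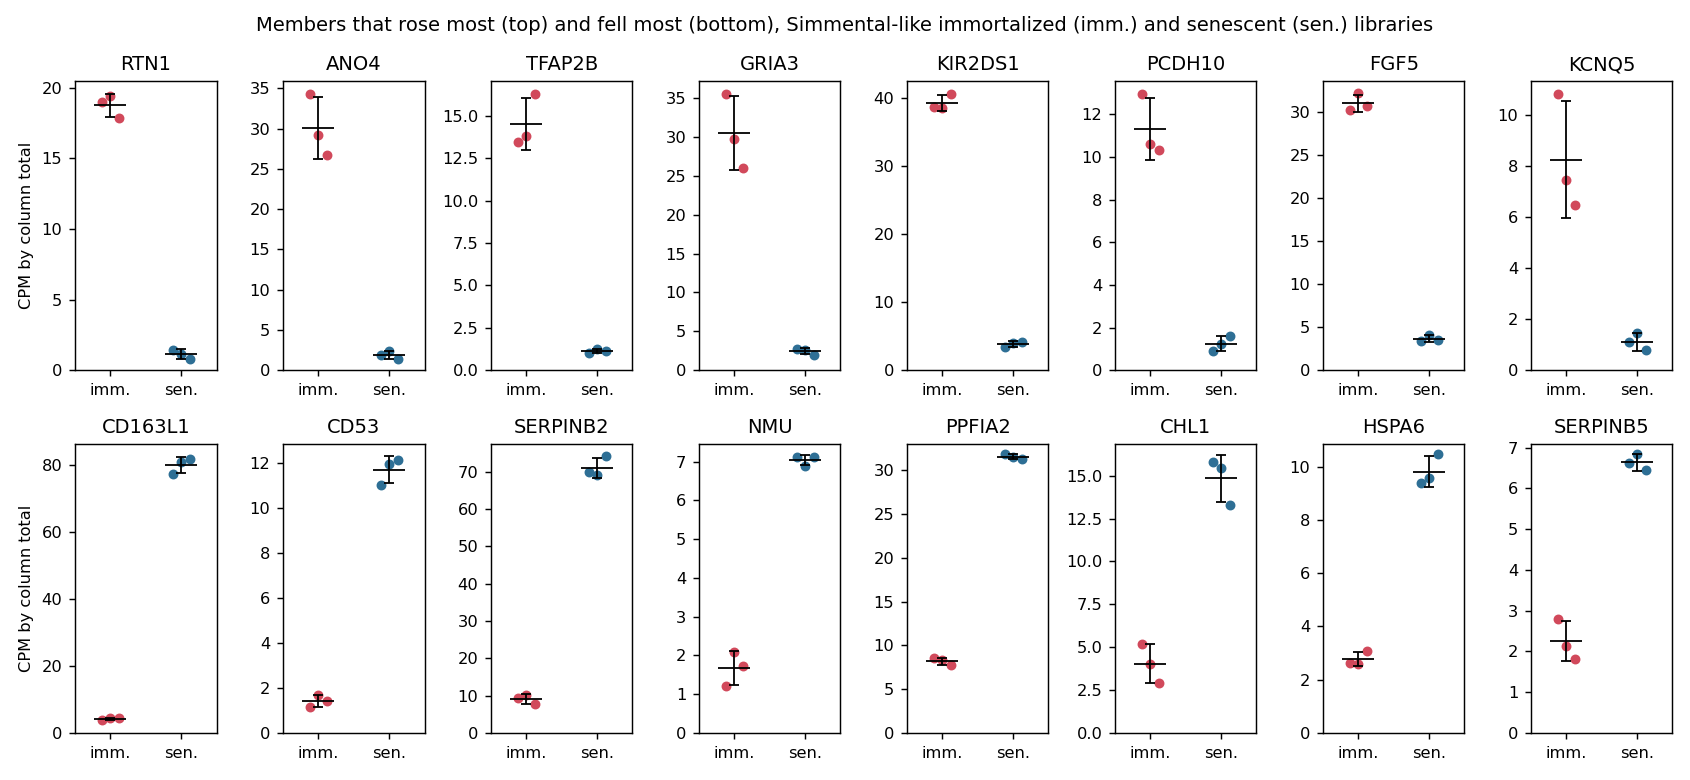
CPM by column total of the 8 members with a symbol that rose most (top row) and the 8 that fell most (bottom row), in 3 immortalized (imm., left in each panel) and 3 senescent (sen., right) libraries. Points are libraries and the bar is the mean with 1 SD. The groups do not overlap in any panel.

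Calls by role were as follows, beside 16.4% of all genes tested called higher and 16.1% called lower. In the fit of the 6 compared libraries alone, 66.8% of all genes were called. Of the 9 transcription regulators 4 rose (RORB, PAX9, TFAP2B and ARNTL2) and 0 fell, while SOX9 had a log2 change of -0.27 ± 0.19 (edgeR adjusted p = 0.320), SOX5 of 0.33 ± 0.21 and SOX10 of -0.26 ± 0.23. Of the 5 transmitter receptors GRIA3 and GRIK2 (0.63 ± 0.14, adjusted p = 0.00890) rose and CNR1 fell. Of the 14 neural adhesion and synapse genes 6 rose, 2 fell and 6 were not called, among them CNKSR2 at 0.15 ± 0.15. Of 7 transporters 4 rose, including SLC8A3 (1.57 ± 0.23), and SLC8A1 fell (-0.94 ± 0.27, adjusted p = 0.0271). All 3 serpins fell. Secreted signals rose in 3 of 4 cases, and the 20 identifier-only genes gave 6 higher and 8 lower. No test was made of these groups as sets.

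Some calls near the threshold were lost with fewer libraries. FAM169A, HAPLN1, SLC8A1, CNR1, MYO5B, FSD1, EMB, SLITRK5 and 1 identifier-only gene were not called in at least 1 of the fits that left out 1 library. The first 5 of these were not called whichever senescent library was left out. Calls over all genes also dropped in these fits, from 4249 to between 2888 and 3423. FAM169A and HAPLN1 also lost their calls under total-count scaling. With senescent libraries 1 and 2 summed as 1 sample, 32 members were higher and 20 lower.

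In the Holstein-like libraries, whose values the rule did not use, the members' values differed widely between libraries of the same stage. A level of 1 CPM was reached in 0 libraries by 35 members, in 1 library by 17, in 2 to 4 by 12 and in 5 or more by 24. In the 3 primary libraries 64 members had 0 counts, but these libraries are shallow, and 3 counts correspond to 2.05 to 2.11 CPM in each. The summed level of the members was 461 to 483 CPM in primary, 697 to 1036 CPM in senescent and 553 to 981 CPM in immortalized Holstein-like libraries. In each library 1 gene took 29.3% to 73.2% of that sum, against 5.42% to 11.2% in the later Simmental-like libraries. Some Holstein-like library exceeded every Simmental-like one for 27 members.

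The leading members differed with the marker genes of each library. SLC16A6, of the monocarboxylate transporter family, had 349, 331 and 352 CPM in the primary libraries, in which muscle markers were high, and PALMD had 67.1, 59.3 and 65.3 CPM there. In senescent library 1, where heart markers took 6.97%, PALMD had 205 CPM and SLC8A1, the exchanger of heart muscle, 187 CPM. SERPINA11 had 491, 405 and 474 CPM in senescent libraries 2 and 3 and immortalized library 1, those with liver markers, and MGC152281 had 178, 108 and 168 CPM there. ZBP1 and PPP2R2B were also high in these libraries, at 53.7 to 154 CPM and 68.7 to 144 CPM. In immortalized library 2, with kidney markers, MYO5B had 162 CPM, SLC8A1 101 CPM, SLC16A14 62.3 CPM and TFAP2B 20.8 CPM.

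Immortalized library 3, the Holstein-like library with a fibroblast share like that of the Simmental-like ones, was led by CYBB at 278 CPM, CD53 at 90.6 CPM and PALMD at 74.9 CPM. SOX10 had 25.9 CPM and SPN 25.7 CPM there. The 16 macrophage and lymphoid markers took 0.368% of that library and 0.0093% to 0.142% of the other Holstein-like ones, and the glial, Schwann and melanocyte markers 0.112% and 0.0069% to 0.0301%. Endothelial markers took 0.715% of that library and 0.0252% to 0.127% of the others, and adipocyte markers 0.219% and 0.0064% to 0.148%. The part of these cell types in the members' levels was not tested. The 8 members with a symbol and the highest mean over the later Simmental-like libraries lay between 0 and 6.80 CPM in it. PPP2R2B was at 6.80 CPM, CD163L1 at 2.43 CPM, KIR2DS1 at 2.08 CPM, GRIK2 at 1.43 CPM, CNKSR2 at 0.859 CPM and FAM169A at 0.573 CPM, while PPFIA2 and SERPINB2 had 0 counts. LRRC55 stood at 12.9 CPM there.

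**Figure D5:**
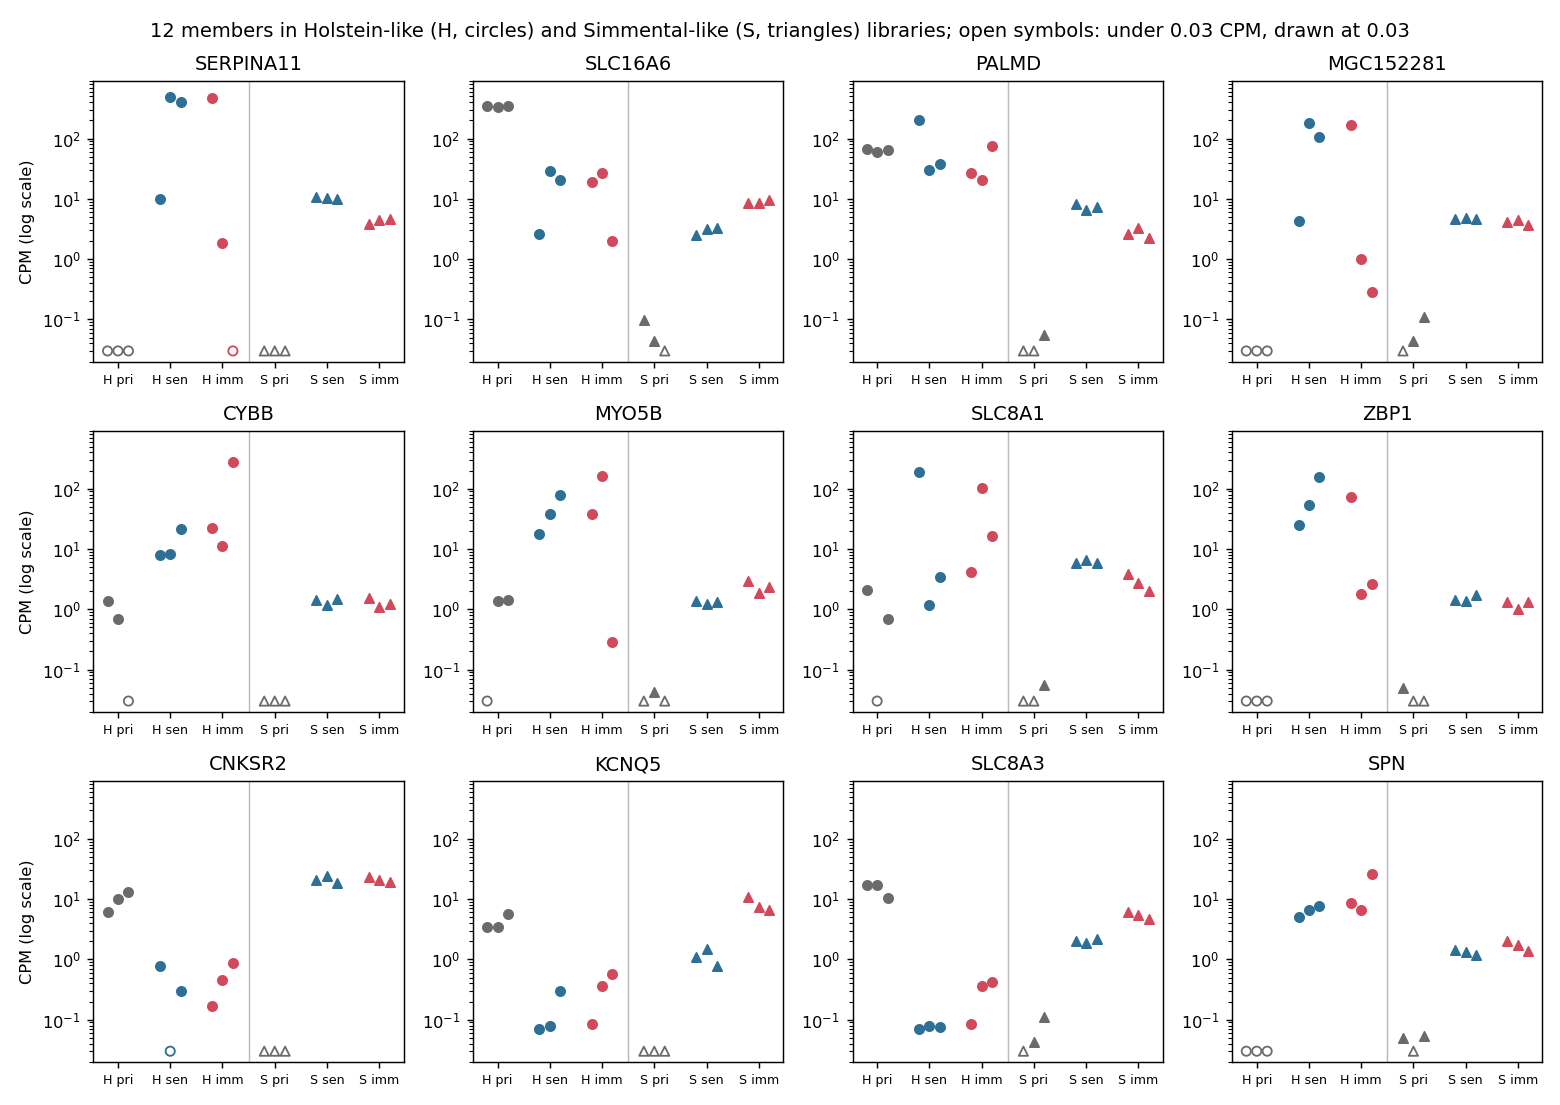
CPM (log scale) of 12 members in Holstein-like (H, circles) and Simmental-like (S, triangles) primary (pri), senescent (sen) and immortalized (imm) libraries. The first 8 have the highest Holstein-like mean, and 4 were added for the comparison with primary libraries. SERPINA11 stands at 405 to 491 CPM in 3 later Holstein-like libraries and at 0 in the primary ones.

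Only 31 of the 88 members had enough counts to be tested between Holstein-like stages, and a member could pass the filter through its high group alone. In senescent against primary libraries 7 of the 31 passed, where 15.2% of 13312 genes did: SPN, REL and SORBS2 were higher, and CNKSR2, KCNQ5, SLC8A3 and SLC16A6 lower. In immortalized against primary libraries 10 of 31 passed, where 24.0% of genes did: SPN, CYBB, REL, SOX5, CD53 and CHL1 were higher, and the same 4 lower. SPN, REL, SOX5 and CHL1 had 0 counts in all 3 primary libraries and could be tested only through the groups where they are high, so nothing is read from the members' counts beside these shares. The first comparison found 9.31% of genes higher and 5.90% lower, and the second 15.3% and 8.73%. Overlap was again judged on CPM by column total. Groups did not overlap for 21 of the 31 in the first (16 higher and 5 lower, against 55.0%, 42.1% and 12.9% of all genes) and for 19 in the second (14 higher and 5 lower, against 58.2%, 48.6% and 9.56%). The comparisons share their primary libraries. Without any 1 of the primary libraries, 0 members were higher and 1 lower in the first comparison, and 1 was higher and 1 to 2 lower in the second. Without senescent library 2 or 3, 0 to 1 member was higher and 1 to 2 lower in the first. Without senescent library 1, 6 members were higher and 6 lower in it. Without immortalized library 1, 3 were higher and 4 lower in the second. With the primary libraries summed as 1 sample, assumed to vary like the other groups, edgeR called 0 genes in both comparisons (unadjusted p under 0.05 for 1914 genes and 9 members in the first, and 2471 genes and 11 members in the second), whereas DESeq2 on the 3 libraries called 13 members higher and 5 lower in the first, and 12 and 5 in the second.

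SPN had 8.47, 6.55 and 25.7 CPM in immortalized, 4.97, 6.51 and 7.58 CPM in senescent and 0 in all 3 primary Holstein-like libraries. This is at least 20.9-fold higher in immortalized and at least 9.17-fold higher in senescent libraries than 3 counts over the primary libraries. For REL, also at 0 in primary libraries, the bounds were at least 6.06-fold and at least 3.42-fold. SORBS2 had 30.0, 4.48 and 10.1 CPM in senescent and 1.62, 0.789 and 1.4 CPM in primary libraries, a log2 change of 3.36 ± 0.85 (edgeR adjusted p = 0.0365).

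The 4 lower members were those in which all 6 later Holstein-like libraries lay below the 3 primary ones. SLC8A3 had 0.0839, 0.364 and 0.429 CPM in immortalized, 0.0710, 0.0775 and 0.0750 CPM in senescent, and 17.1, 17 and 10.5 CPM in primary libraries (immortalized against primary -6.56 ± 0.55, edgeR adjusted p = 0.00281; senescent against primary -7.82 ± 0.60, adjusted p = 0.00198). CNKSR2 had 0 to 0.859 CPM in the later libraries and 6.17, 10.2 and 13.3 CPM in primary ones. KCNQ5 had 0.0710 to 0.573 CPM in the later libraries and 3.43, 3.41 and 5.62 CPM in primary ones. SLC16A6 had 2.00 to 29.4 CPM in the later libraries and 331 to 352 CPM in primary ones. Skeletal muscle markers took 0.0032% to 3.85% of the counts in the later libraries and 16.8% to 16.9% in the primary ones, and stage, culture and tissue markers cannot be told apart there.

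The limits of the rule left close neighbours on either side, given here by value only. For the senescent mean, ESR2 (1.02 CPM), MGC140681 (1.07 CPM) and KCNQ5 (1.12 CPM) lay just inside, and TSHZ2 (0.996 CPM), BARHL2 (0.967 CPM) and MAPK4 (0.964 CPM) just outside. For the immortalized mean, WSCD1 (1.02 CPM) and ESR2 (1.2 CPM) lay just inside, and MYO3A (0.907 CPM), IFNB1 (0.894 CPM) and IL1A (0.857 CPM) just outside. At the limit of primary counts, GRIK2, GRIA3 and PAX9 with 3 counts were members, while ADCYAP1, GPX6 and ROBO2 with 4 counts were not. Leaving out primary library 2 gave 105 members, among them all 88.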

How the data were processed

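RNA was sequenced from 18 libraries. The authors deposited 1 table of expected counts per gene, made with salmon as its name says; per the submitters' processing notes the genome build was UMD3.1. Per the labels' protocols, RNA came from RNeasy mini kits and libraries from NEBNext Ultra II kits, read as single reads on a NextSeq. Not given in the sources used here are salmon's version, the annotation and whether counting used strand. All 18 columns were mapped by name to samples, the Holstein-like ones without the ending Rerun, and 0 columns were left unmapped.

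Values that are not whole made up 1.01% to 7.18% of a column, and expected counts were rounded before the rule and the tests were applied. Levels are counts per 1000000 counts of the column (CPM), as mean ± SD. Models of 9 libraries, 1 for each line, were fitted in R 4.3.3 with edgeR 4.0.16 (TMM, filterByExpr, robust quasi-likelihood F-test, Benjamini-Hochberg adjustment over all genes tested, threshold 0.05). Standard errors were taken as the size of the change divided by the root of F. Alternatives were RLE and total-count scaling, no filter, DESeq2 1.42.0, a replicate block, the 6 compared libraries only, each library left out, and, chosen after seeing the data, summed near-identical libraries. A count of 0 allows up to 3 counts. Bounds and intervals cover counting error only.

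The steps were tested on simulated data. All libraries of a line were drawn at 1 fixed dispersion (spread beyond counting), 0.02 for Simmental-like and 0.2 for Holstein-like ones. Of genes changed 2-fold (1 on the log2 scale), 97% were recovered for Simmental-like immortalized versus senescent libraries. In the Holstein-like simulations, 0% of genes changed by 1 and 23% of those changed by 2 on the log2 scale were recovered for senescent versus primary libraries, and 1% and 32.3% for immortalized versus primary libraries. The data differ in spread between groups, which the simulation did not copy. Chi-square per gene was 1.21 to 1.24 among Holstein-like primary and 210 to 1180 among Holstein-like senescent libraries. The recovered shares therefore hold for the simulated setting only.

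The members, gene lists, roles and tests were chosen with earlier results of these data known. Named genes are the 12 members with the highest later level, up to 4 of each family, marker list members, the 8 that rose and 8 that fell most between later stages (called, groups that do not overlap, at least 5 CPM in the higher group), the highest Holstein-like members, and genes nearest each limit. Other members named with a role were added after their values were seen. Of 68 member symbols, 65 with a unique name were found in a RefSeq table (ARS-UCD assembly), used only for gene order. No genome or sequence table was used here. Some genes are not reported here.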

Additional observations from a re-analysis of the deposited data

Results flagged for a closer look

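Members whose direction differed between the lines are CNKSR2, KCNQ5, SLC16A6 and SLC8A3: every later library lay above every primary one in the Simmental-like line, a direction fixed by the rule, and every later library lay below every primary one in the Holstein-like line. The difference between the lines was not tested. Means of the 6 later and the 3 primary Holstein-like libraries were 0.427 and 9.91 CPM for CNKSR2, 0.245 and 4.15 CPM for KCNQ5, 16.7 and 344 CPM for SLC16A6, and 0.183 and 14.9 CPM for SLC8A3. In the Simmental-like line the same means were 21.2 and 0 CPM, 4.68 and 0 CPM, 5.89 and 0.0473 CPM, and 3.68 and 0.0506 CPM, in the same order of genes. The Holstein-like primary libraries are those with 16.8% to 16.9% of counts in skeletal muscle markers.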

How the results depend on the processing

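For immortalized versus senescent Simmental-like libraries, 208 values of the 16 named members under alternatives kept their direction and their side of the threshold (highest edgeR or DESeq2 adjusted p = 0.0387). These 16 had been picked as called members with the largest changes, so their stability says little about the other members. Over all 88 members, 8 calls were lost when senescent library 3 was left out. The fit of the 6 compared libraries alone called 8600 genes, 66.8% of those tested, with 39 members higher and 27 lower. Leaving out each compared library gave 2888 to 3423 genes, with 30 to 34 members higher and 20 to 22 lower. Deviations of same-numbered Simmental-like senescent and immortalized libraries had correlations of -0.097 to 0.457, and those of other numbers -0.47 to 0.308. The ranges overlap, with the highest value in a same-numbered pair, so they do not settle whether the numbers pair the samples. The main fit used no pairing. With a replicate block 3466 genes passed there, and 33 and 21 members.

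For senescent versus primary Holstein-like libraries, the replicate block gave 303 genes with 0 members higher and 2 lower (18 members with an unadjusted p under 0.05), total-count scaling 8 members higher, DESeq2 4438 genes and 13 members higher, and summed primary libraries 0 genes and 0 members in either direction. Leaving out each library gave 143 to 3545 genes, 0 to 6 members higher and 1 to 6 lower. For immortalized versus primary libraries, the block gave 1109 genes, 1 member higher and 2 lower, total-count scaling 5323 genes and 11 members higher, DESeq2 5455 genes and 12 members higher, and summed primary libraries 0 genes and 0 members. Leaving out each library gave 417 to 2302 genes, 1 to 4 members higher and 1 to 4 lower. The cause was not tested.

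The number of members was 37 with 0 primary counts, 168 with up to 10, 59 at 2 CPM, 142 at 0.5 CPM, 81 with TMM-scaled CPM and 87 to 105 when each library was left out. In the Holstein-like primary libraries a count of 0 allows a level of up to 2.05 to 2.11 CPM in a library.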
